A study of Mus musculus with 12 samples.

Results

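The genes described here act in lipoprotein lipase biology and in the delivery of fatty acids to heart muscle cells. They are Gpihbp1, Lpl, Lmf1, Angptl4, Fabp3, Fabp4, Fabp5, Cd36 and Vldlr, 9 of the 19053 genes named on the array, and they were taken by symbol with every probe listed for them, 19 of 45281 probes. Myocytes were isolated with collagenase from hearts of C57BL/6 mice aged 12 to 16 weeks and plated on laminin, in medium with albumin, penicillin and the contraction inhibitor BDM. The CTGF group (6 arrays) received connective tissue growth factor, a secreted matricellular protein, at 200 nmol/L for 48 h. The control group (6 arrays) was cultured for the same time in the same medium with no CTGF. No separate hearts or preparations are named in the labels, so p-values measure the spread between these cultures, which may be partly technical.

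Lipoprotein lipase hydrolyses the triglycerides of circulating lipoproteins at the capillary wall and so releases fatty acids, the main fuel of the adult heart. Cardiac myocytes make the enzyme, LMF1 in the endoplasmic reticulum is needed for its folding, and GPIHBP1 on capillary endothelial cells carries it to the vessel lumen, where ANGPTL4 inhibits it. Released fatty acids are taken up with the help of CD36 and bound inside cells by FABP proteins, of which FABP3 is the muscle form and FABP4 and FABP5 are found in endothelial cells, among others. VLDLR binds triglyceride-rich lipoproteins directly.

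With CTGF, the signal of the endothelial lipase carrier Gpihbp1 fell to near background, and that of the lipase inhibitor Angptl4 was 1.92-fold lower after quantile normalization. Angptl4 was called lower under all 4 scalings between arrays, with log2 changes from -0.99 to -0.50. The size of the Gpihbp1 fall is not an exact fold, since its brighter probe was above background on 2 of 6 CTGF arrays and its log2 change was -2.34 with and -1.28 without background correction. Lpl itself differed by 0.06 ± 0.06 (SE, n = 6 and 6) on the log2 scale and was not called. Lower levels of Lmf1 and Fabp3 passed the test too, and both calls depended on how the arrays were scaled to each other. No probe for Cd36, Fabp4 or Fabp5 was above background on any of the 12 arrays. Of the 6 members that could be tested, 4 were lower, none was higher and 2 were not called, while limma called 21.6% of the 8905 genes tested lower, 25% higher and 46.6% in either direction. None was higher at an unadjusted p under 0.05 either. By probe, 5 of 11 were lower and none was higher, against 19.7% lower, 23.8% higher and 43.5% in either direction over 15038 probes. The groups did not overlap for Gpihbp1 and Angptl4, both lower, as held for 12.1% of all genes in the lower and 13% in the higher direction, 25.1% in all. With 6 genes, these counts are a description only.

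Of the members called lower, Fabp3 and Lmf1 have an entry among the promoter sequences used here, and these are shown because they are the stretches next to the transcripts that were lower. They come from RefSeq for build GRCm38.p6, run 5′ to 3′ and hold 250 bases before and 50 bases after the gene start. Fabp3 lies at chr4:130308488-130308787 and Lmf1 at chr17:25578924-25579223, both on the plus strand. Capitals mark matches, on either strand, to 5 short motifs: AGGTCA (a nuclear receptor motif of the kind PPAR binds), GGGCGG (SP1), ACGTG (hypoxia factors), TGACGT (the core of the cAMP element) and CANNTG (E-box), with no match overlapping another.
Fabp3: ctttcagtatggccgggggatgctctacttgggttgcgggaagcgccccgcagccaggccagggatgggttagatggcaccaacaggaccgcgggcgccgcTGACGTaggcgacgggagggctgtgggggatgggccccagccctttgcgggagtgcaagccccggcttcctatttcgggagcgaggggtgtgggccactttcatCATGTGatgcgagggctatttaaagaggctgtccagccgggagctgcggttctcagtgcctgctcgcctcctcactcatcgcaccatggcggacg
Lmf1: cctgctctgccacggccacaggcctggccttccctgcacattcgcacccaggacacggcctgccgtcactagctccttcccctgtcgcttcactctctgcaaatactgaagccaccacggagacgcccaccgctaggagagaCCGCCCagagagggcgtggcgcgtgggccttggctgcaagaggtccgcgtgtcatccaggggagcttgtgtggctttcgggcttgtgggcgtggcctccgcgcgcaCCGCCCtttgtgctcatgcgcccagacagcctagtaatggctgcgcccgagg
The Fabp3 stretch holds TGACGT at bases 102 to 107, a motif found in 7.51% of the 32851 promoters of this length, and an E-box at bases 206 to 211, a motif found in 72.3% of them. The Lmf1 stretch holds none of these 2 motifs but has GGGCGG in its reverse form at bases 143 to 148 and 249 to 254, and 35.7% of promoters hold that motif. Neither stretch holds AGGTCA (16.3% of promoters) or ACGTG (19.6%). Such matches are letters in a window and say nothing of binding.

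Between 14747 and 16390 of 45281 probes were detected per array (detection p under 0.05), and raw median intensities lay between 69.2 and 76.15. Quantile normalization put 53.7% of called genes on the higher side, cyclic loess 46.3%, median scaling 84.0% and unscaled arrays 86.3%. The median gene moved by 0.03, -0.01, 0.31 and 0.35 (log2) in the same order, so changes below are set against the other genes of the same arrays. Labelled as cardiac myocytes, the cultures had all 10 myocyte markers with a probe above background. Endothelial, fibroblast and smooth muscle transcripts were detected beside them. Neither slide nor hybridisation batch was used here, since the labels name none, and a batch that went with the treatment cannot be told apart from it.

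Gpihbp1 encodes the protein that binds lipoprotein lipase on the basal side of capillary endothelial cells. The raw intensity of its brighter probe was lowest at 157, with a median of 171 and a highest value of 177, in controls. With CTGF the lowest, median and highest values were 69.1, 76.2 and 92.3. Every CTGF array lay below every control array.
A second probe for the same transcript gave 110 to 163 in controls (median 152) and 60.6 to 84.8 with CTGF (median 69.3). The groups did not overlap there either. Both probes were above background on all 6 control arrays, the brighter on 2 and the other on 1 of 6 CTGF arrays.

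On the normalized scale, mean log2 intensities of Gpihbp1 were 4.75 ± 0.23 with CTGF against 7.09 ± 0.14 in controls (SD, n = 6 each). The fitted log2 change was -2.34 ± 0.11 (SE, adjusted p = 4.29e-10 by limma), and the second probe gave -2.20 ± 0.12. The fit's 95% interval of -2.57 to -2.11 covers the spread between arrays and not the choice of background, which limits the CTGF level. Only 3.87% of all genes were called lower by at least 1 on this scale. The detection filter of 6 arrays was met by the 6 control arrays alone, so Gpihbp1 was tested through the group where it was high. Its p-value and that share therefore describe the fall and are no further support for it. The log2 change of Gpihbp1 was -1.28 both on uncorrected intensities and on the values the authors normalized, outside the 95% interval above. The call held under every alternative in which the gene was measured. Fewer cells of a type and less RNA per cell cannot be told apart in such bulk samples.

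Endothelial markers moved with Gpihbp1. All 14 measured markers of 16 listed were lower with CTGF, under all 4 scalings, with log2 fold changes from -3.37 to -0.71 and a median of -1.61, against 0.03 for all genes. Among them Ly6c1 changed by -3.37 ± 0.16 (SE), the tight junction gene Cldn5 by -2.63 ± 0.10 and Egfl7, an endothelial secreted factor, by -1.80 ± 0.09. Ly6c1 was detected on 5 of 6 CTGF arrays, Sox17 on 4 and Tie1, at -0.71, on 2, so background limits the size of these falls. The summed normalized intensity of the list lay between 2853 and 3461 on CTGF arrays and between 8526 and 10231 on control arrays, with no overlap, and 2 further markers, Kdr and Erg, were detected on no array. Smooth muscle and pericyte markers moved too, with 6 of 7 measured lower, among them Mcam (-1.72 ± 0.10), and 1 higher, Cspg4 (0.84 ± 0.13), while Tagln was detected on no array. Their summed normalized intensity was 2765 to 3366 with CTGF and 4679 to 5347 in controls. Of 7 fibroblast markers 4 were lower, among them Pdgfra (-2.35 ± 0.10), and the sum was 5228 to 6106 with CTGF and 4233 to 7487 in controls, which overlap. Under all 4 scalings 4 of the smooth muscle and 3 of the fibroblast markers were lower, and Cspg4 was higher. Of those lower, Notch3 was detected on 3 and Tcf21 on 2 of 6 CTGF arrays. Over all genes, limma called 21.6% lower and 25% higher, and 29.0% held their call under all 4 scalings. On unscaled arrays and under median scaling 2 fibroblast markers were called higher. The part of these cell types in the Gpihbp1 result was not tested.

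**Figure D1:**
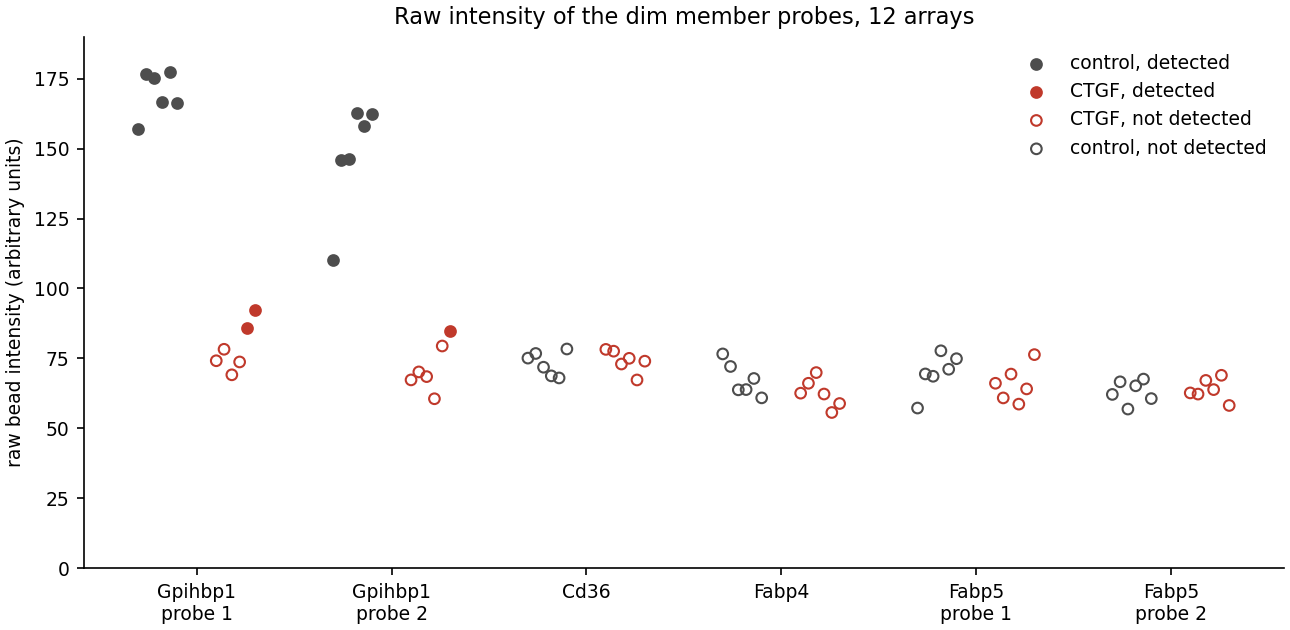
Raw bead intensity (vertical axis, arbitrary units) of both Gpihbp1 probes and of the probes for Cd36, Fabp4 and Fabp5 on 12 arrays, with 1 point per array, control in grey and CTGF in red, filled where the probe was detected at p under 0.05. Gpihbp1 is detected on all 6 control arrays and lies between 60.6 and 92.3 with CTGF, near the undetected probes, which lie between 55.7 and 78.4.

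Lpl encodes the lipase itself, and its signal was among the brightest of the arrays. Raw intensity was lowest at 48236, with a median of 53791 and a highest value of 58841, on CTGF arrays. In controls the values were 47184, 54285 and 58960. The ranges lay almost on top of each other. Lpl ranked 17 to 22 of 45281 probes with CTGF and 19 to 25 in controls, at 73.6% to 92.6% of the brightest probe of its array. Whether the scanner's range limits such bright probes was not tested.

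Normalized log2 intensities of Lpl were 15.75 ± 0.03 with CTGF against 15.69 ± 0.06 in controls (SD, n = 6 each). The log2 fold change of 0.06 ± 0.06 (SE, limma adjusted p = 0.476) had a 95% interval of -0.08 to 0.20, which corresponds to 0.948 to 1.14 of the control level. That interval covers the spread between arrays after quantile normalization and not the choice of scaling. Fitted over probes, the SE was 0.07 under quantile normalization and 0.12 on unscaled arrays. Under median scaling the log2 fold change was -0.07 and with no normalization between arrays 0.01, again not called. Relative to the median gene, Lpl was at 0.02 under quantile normalization and 0.08 under cyclic loess. It was at -0.33 on unscaled arrays and -0.38 under median scaling, so its place among the other genes depended on the scaling. A second Lpl probe, designed to another transcript record, was detected on no array, with raw intensities of 62.6 to 71.0. Macrophages also make the lipase, and of 4 measured macrophage markers Lyz2 was lower (-1.07 ± 0.12, SE) and 3 were not called. Lyz2 was detected on 2 of 6 CTGF arrays and on all 6 control arrays, so background limits the size of its fall. Ptprc, C1qa and Fcgr1 were detected on no array. The summed intensity of that list was 111 to 140 with CTGF and 120 to 168 in controls, and its part in the Lpl result was not tested.

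The change of Gpihbp1 differed from that of Lpl. Within each array the log2 difference between them changed by -2.40 with CTGF (two-sided exact permutation test over 924 splits, p = 0.00216, the smallest this design allows), and every CTGF array lay below every control array. It was the 1 pair of 5 planned that could be tested, since the other pairs involve Cd36, Fabp4 or Fabp5. The members were chosen with earlier results of these data known, so this p-value is a description and no independent support. Gpihbp1 was undetected on 4 of 6 CTGF arrays, so the size of this difference is limited by background, and it was -1.34 with no background correction.

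Lmf1, which encodes the folding factor of the lipase, had raw intensities of 211 to 358 with CTGF (median 301) and 217 to 404 in controls (median 259). Raw ranges overlapped almost wholly. After quantile normalization the log2 values were 7.52 to 7.90 with CTGF (median 7.71) and 7.88 to 8.48 in controls (median 7.92). The groups touched at their edges, and control replicates 3 and 6 were the highest arrays. Mean log2 intensities of 7.70 ± 0.14 and 8.07 ± 0.27 (SD, n = 6 each) gave a log2 fold change of -0.37 ± 0.12 (SE, limma adjusted p = 0.0176). On arrays not normalized to each other Lmf1 gave 0.073 (adjusted p = 0.732), and median scaling gave 0.029 (adjusted p = 0.895), so the call was lost and the sign turned. Relative to the median gene the unscaled value was -0.27. A second Lmf1 probe was detected on no array.

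Angptl4, a secreted inhibitor of lipoprotein lipase and a target gene of PPAR receptors, had raw intensities of 309 to 501 with CTGF (median 458) and 493 to 722 in controls (median 573). In raw values 1 CTGF array reached into the control range. Normalized log2 intensities lay between 8.13 and 8.53 with CTGF (median 8.39) and between 9.13 and 9.55 in controls (median 9.31). There the groups did not overlap. Angptl4 fell by 0.94 ± 0.10 on the log2 scale (SE, adjusted p = 1.43e-06 by limma), from means of 8.36 ± 0.16 and 9.30 ± 0.16 (SD, n = 6 each). The fall was called under all 4 scalings, with -0.50 when arrays were not normalized to each other (-0.85 relative to the median gene) and -0.55 under median scaling. The second Angptl4 probe was detected on no array.

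**Figure D2:**
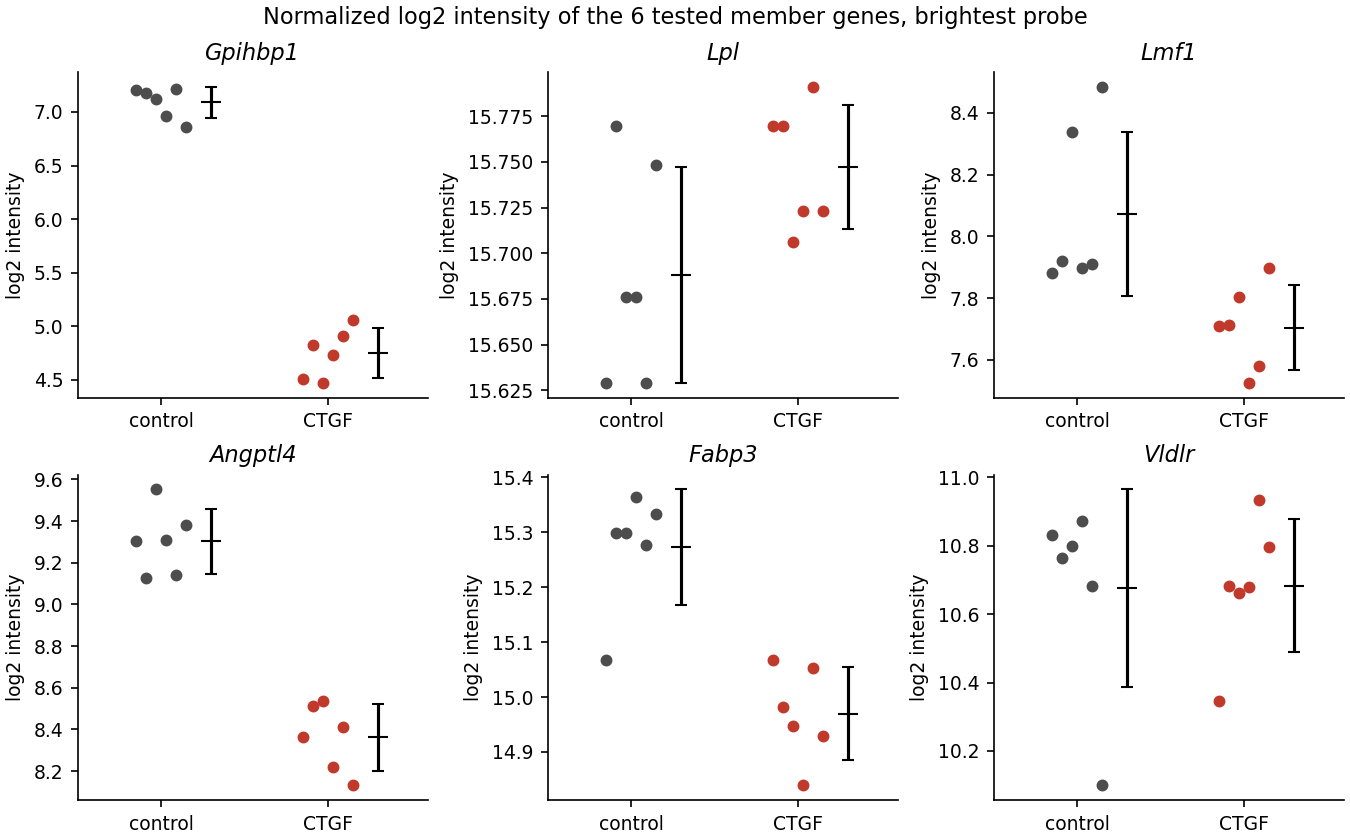
Normalized log2 intensity (vertical axes, a separate scale in each panel) of the brightest probe of the 6 tested genes, with 1 point per array and the mean ± SD beside each group of 6. Gpihbp1 and Angptl4 separate the groups completely, Lmf1 and Fabp3 touch at the edges, and Lpl and Vldlr overlap.

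Fabp3 encodes the heart-type fatty acid-binding protein, an abundant cytosolic protein of cardiac myocytes. Its raw intensity was lowest at 24553, with a median of 32907 and a highest value of 36922, with CTGF. In controls these values were 28520, 40016 and 48654. The lowest control array, replicate 1, lay inside the CTGF range and the other 5 controls lay above it. Mean log2 intensities were 14.97 ± 0.08 with CTGF against 15.27 ± 0.11 in controls (SD, n = 6 each), a log2 fold change of -0.30 ± 0.07 (SE, limma adjusted p = 0.00382) or 0.81 of the control level. The value was -0.30 with no normalization between arrays too, but its call was lost there (adjusted p = 0.0823). Relative to the median gene, Fabp3 was at -0.34 under quantile normalization and -0.28 under cyclic loess. It was at -0.64 on unscaled arrays and -0.69 under median scaling. Fabp3 ranked 37 to 75 of all probes on its array. Of 10 measured myocyte markers 3 fell, Tnni3 (-0.89 ± 0.10, SE), Pln (-0.75 ± 0.13) and Actc1 (-0.31 ± 0.08), with Actc1 and Pln losing their call with no normalization between arrays. The median of the myocyte list, also set against the median gene, was -0.16 under quantile normalization and -0.15 under cyclic loess. It was -0.51 on unscaled arrays and -0.55 under median scaling. The summed intensity of the list was 265027 to 292248 with CTGF and 292288 to 315330 in controls, and its part in the Fabp3 result was not tested.

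The other binding proteins and the fatty acid translocase gave no measurable signal. The single Cd36 probe had raw intensities of 67.3 to 78.2 with CTGF and 68.0 to 78.4 in controls, with detection p-values from 0.06 to 0.63. The Fabp4 probe had 55.7 to 69.9 with CTGF and 60.9 to 76.6 in controls (detection p 0.11 to 0.99). The 2 Fabp5 probes together ran from 56.9 to 77.7, with detection p-values from 0.12 to 0.98.
All 3 genes were not well above background in either group, so no fold change is given for them. A probe below background does not show that a transcript was missing: Lpl, Lmf1, Angptl4 and Vldlr each have a probe detected on all 12 arrays and another detected on none. Adipocytes express Fabp4, and 6 of the 7 adipocyte markers that have a probe were detected on no array, while Lep was detected on 3 arrays of each group.

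Vldlr, the receptor for very low density lipoprotein, had 6 probes, of which 3 were bright, 2 dim and 1 detected on no array. The brightest had raw intensities of 1467 to 2509 with CTGF (median 1858) and 1175 to 1767 in controls (median 1456). The next gave 1207 to 2024 (median 1681) against 867 to 1365 (median 1187), and the last of the bright probes 918 to 1644 (median 1171) against 659 to 1027 (median 871). In raw values the CTGF arrays were mostly higher at all 3 probes, with overlap at each.

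Quantile normalization removed most of that difference. The brightest Vldlr probe had mean log2 intensities of 10.68 ± 0.20 with CTGF and 10.68 ± 0.29 in controls (SD, n = 6 each), a log2 fold change of 0.01 ± 0.13 (SE, limma adjusted p = 0.966) with a 95% interval of -0.27 to 0.29. The other bright probes gave 0.12 and 0.21 and the dim ones -0.18 and 0.27, none of them called. With no normalization between arrays the brightest probe gave 0.40 (adjusted p = 0.0244) and the next 2 gave 0.53 and 0.61, all called higher, and under median scaling the gene gave 0.34 (adjusted p = 0.0481). Relative to the median gene those values were 0.05 and 0.04. Control replicate 6 was the lowest array at all 3 bright probes, and without it the normalized change was -0.11.

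**Figure D3:**
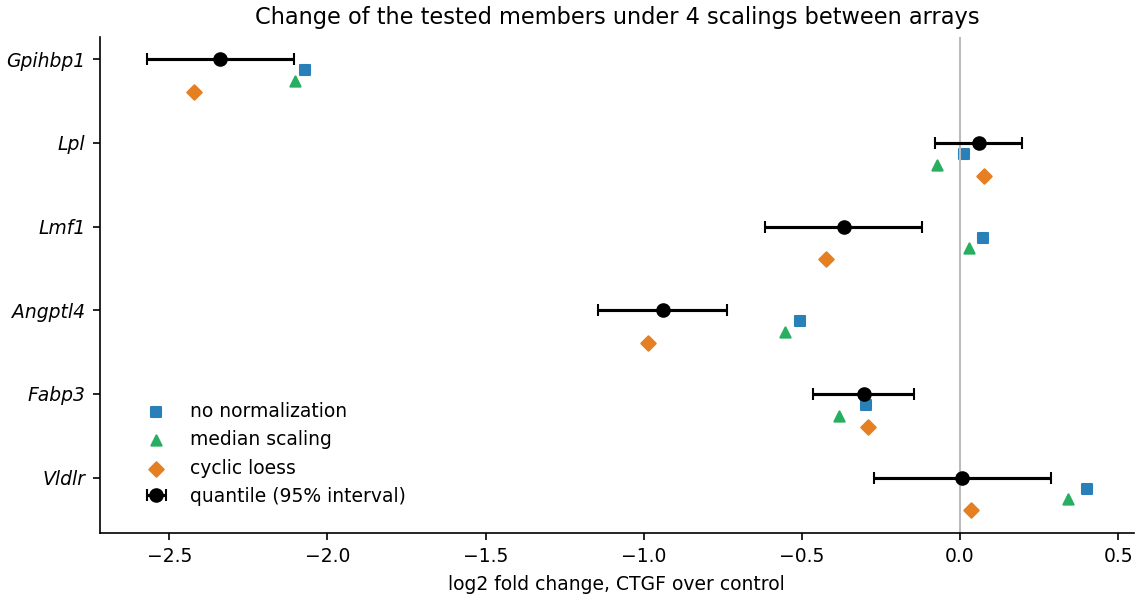
Log2 fold change (horizontal axis, CTGF over control) of the 6 tested genes under quantile normalization, with a 95% interval, and under 3 other scalings between arrays. Gpihbp1 and Angptl4 stay well below 0 under all 4 scalings, while Lmf1 and Vldlr move between -0.42 and 0.40 with the scaling.

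Profiles over the 12 arrays were compared as the root mean square difference of log2 values set to the control mean, a description over arrays that share the group difference. Closest to Gpihbp1 were Gvin1 (0.23), Irf7 (0.24) and Ifit2 (0.25). Closest to Angptl4 were Ngef, Synpo and Grb7, each at 0.13, but Grb7 was detected on 1 of 6 CTGF arrays, so background limits its profile. Closest to Lmf1 were Il17rc (0.12), Ppm1m (0.12) and Map3k11 (0.13). Of the Lmf1 group, all 3 lost their call with no normalization between arrays, with Ppm1m and Map3k11 turning to 0.08 and 0.10, and Il17rc lost its call also without CTGF replicate 4 or 5 or control replicate 3 or 6 (adjusted p up to 0.0571).

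Genes around the members were taken from 7 lists of lipid delivery, 101 genes in all, of which 65 were measured. Of these, 16 were called higher, 26 lower and 23 in neither direction, and 12 of the higher and 10 of the lower calls held under all 4 scalings. Over all genes, 46.6% were called and 29.0% held under all 4 scalings.

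**Figure D4:**
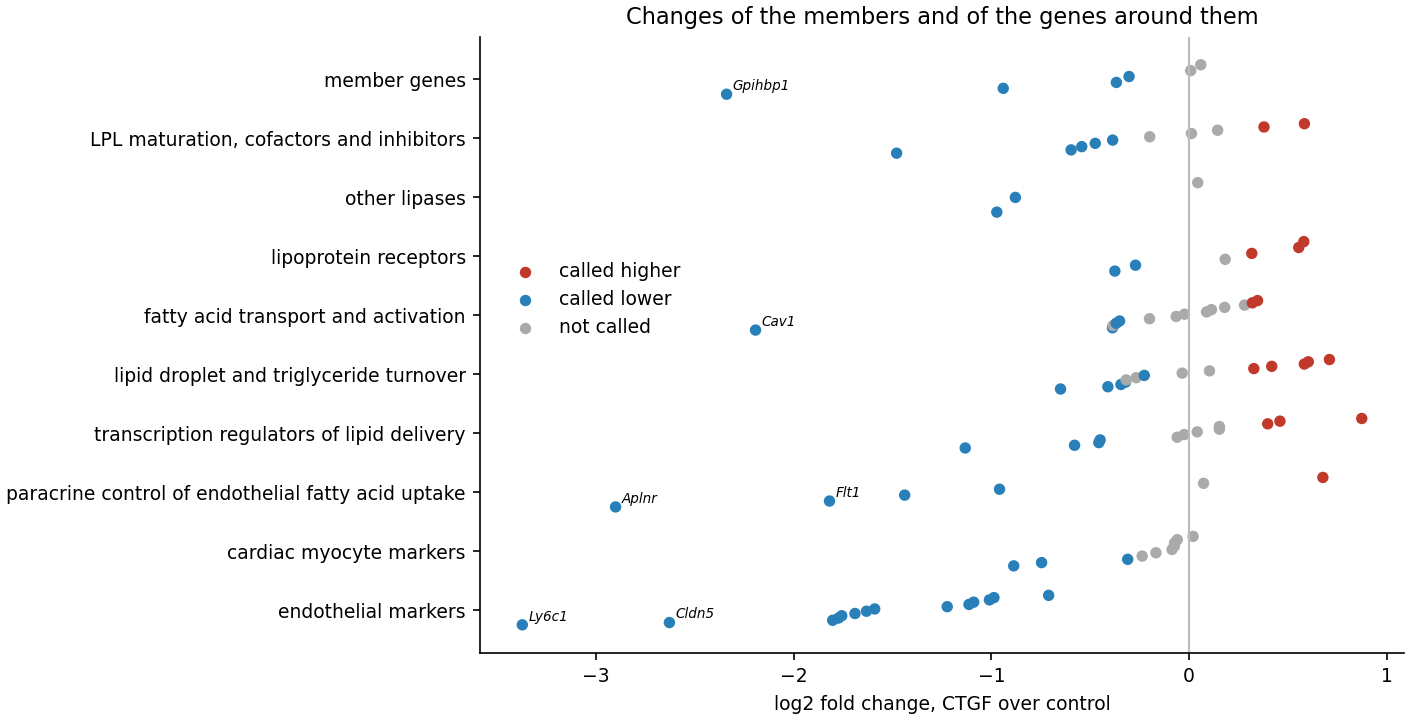
Log2 fold change (horizontal axis, CTGF over control) under quantile normalization of the 6 tested members, 7 lists of lipid delivery genes and 2 lists of markers, with 1 point per gene, red where called higher, blue where called lower and grey where not called. The endothelial list lies wholly below 0, while most lists of lipid delivery hold genes on both sides.

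Among 10 measured genes of lipase maturation and control 5 fell and 2 rose, with a median of -0.29. On unscaled arrays and under median scaling 2 were lower and 3 higher, with medians of 0.07 and 0.03. Apoe, a lipoprotein ligand for receptors of the LDL family, changed by -1.48 ± 0.14 (SE). Furin, a protease that cleaves ANGPTL4 and the lipase, rose by 0.58 ± 0.09. The cell surface proteoglycan gene Sdc1 changed by -0.54 ± 0.10 with detection on 1 of 6 CTGF arrays. The proprotein convertase gene Pcsk6 changed by -0.60 ± 0.14 and lost its call with no normalization and under median scaling. Of 3 other lipases measured, Lipa, the lysosomal acid lipase, changed by -0.97 ± 0.15 and Mgll, the monoglyceride lipase, by -0.88 ± 0.11, both called under all 4 scalings, and the list's median was -0.88.

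Lipoprotein receptors were split, with 3 of 6 measured genes higher, 2 lower and a median of 0.25. On unscaled arrays and under median scaling the 4 genes called by limma were all higher, with medians of 0.64 and 0.58. Sorl1 rose by 0.58 ± 0.13 (SE), Lrp8, the closest relative of Vldlr, by 0.55 ± 0.12 and Lrp10 by 0.32 ± 0.09, and these 3 calls held under all 4 scalings. Scarb2, a lysosomal membrane protein gene of the CD36 family, changed by -0.38 ± 0.08 but turned to 0.07 with no normalization and 0.03 under median scaling.

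Of 14 measured genes for fatty acid transport and activation, 4 fell, 2 rose and 8 were not called, with a median of -0.04. That balance turned on unscaled arrays and under median scaling, with 5 higher and 1 lower and medians of 0.13 and 0.06. Cav1, the caveolin of endothelial and other cells, changed by -2.19 ± 0.10 (SE), under all 4 scalings. The acyl-CoA synthetase gene Acsl5 (-0.39), the palmitoyltransferase gene Zdhhc4 (-0.37) and Cavin1 (-0.35) were also called lower, and each turned to between 0.03 and 0.08 with no normalization between arrays. Among 14 genes of lipid droplets and triglyceride turnover 5 rose and 5 fell, with a median of -0.13. On unscaled arrays and under median scaling the 5 genes called by limma were all higher, and the medians turned to 0.24 and 0.19. Lpin1, a phosphatidate phosphatase, rose by 0.60 ± 0.15 and Agpat2, an acyltransferase, by 0.58 ± 0.12, both under all 4 scalings. The droplet coat gene Plin2 rose by 0.71 ± 0.25 (adjusted p = 0.0296), a call lost under cyclic loess (adjusted p = 0.0532) and without any of CTGF replicates 2, 3, 5 and 6 and control replicates 1 and 6 (adjusted p up to 0.0705). Plin5, the coat protein of oxidative tissues, changed by -0.65 ± 0.14 and lost its call with no normalization and under median scaling.

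Transcription regulators of lipid delivery were called in both directions, 3 higher and 4 lower of 12, with a median of 0.01. Unscaled arrays gave 6 higher and 1 lower with a median of 0.40, and median scaling 6 higher and 2 lower with a median of 0.36. Meox2, an endothelial homeobox factor that in mice drives fatty acid uptake in heart capillaries, changed by -1.13 ± 0.12 (SE). Hif1a rose by 0.87 ± 0.14 and the fatty acid receptor gene Ppard by 0.46 ± 0.07, all 3 under all 4 scalings. Epas1 changed by -0.58 ± 0.11, a call lost with no normalization between arrays. In the paracrine list 4 of 6 fell and 1 rose under all 4 scalings, and the median was -1.20, against 0.03 for all genes. Among them were Aplnr, the apelin receptor, at -2.90 ± 0.13 (detected on 1 of 6 CTGF arrays), Flt1, a receptor for VEGF-B, at -1.82 ± 0.15, Notch1 at -1.44 ± 0.13 and Nrp1, a VEGF coreceptor, at -0.96 ± 0.11. These are genes of endothelial cells among others, and the part of the lower endothelial markers in these falls was not tested.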

How the data were processed

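RNA from 12 cultures, 6 per group, was labelled with biotin and hybridised to Illumina bead arrays. The authors deposited bead intensity values on a linear scale that were not normalized, per the file headers. A detection p-value beside each intensity was deposited too. A further deposited table holds intensities that match quantile normalization of the raw ones, as seen from the values. Whether the authors corrected the background is not given in the sources used here. Their sorted values differed by at most 0.65% from the mean of the sorted raw columns, with the top 10 probes left out.

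Titles of the samples gave group and replicate. Probes were named through the platform annotation and the GRCm38.p6 gene table (34885 of 45281 probes with 1 symbol). The neqc function of limma 3.58.1 under R 4.3.3 took background from the detection p-values, added 16 to each intensity, equalised quantiles and went to log2. This addition shrinks changes of dim genes. Kept were probes with a detection p under 0.05 on 6 or more arrays (15038, of them 11 of the 19 described here), and a gene was its brightest kept probe. A two-sided lmFit and eBayes fit compared the groups, and Benjamini-Hochberg adjusted p-values over 8905 genes were called under 0.05. Every probe was also fitted, over 15038 probes. The fit was tested on simulated intensities with as many genes raised as lowered and no difference in scale between arrays. That simulation does not test the choice of scaling. Lists were described by counts and medians and not tested.

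The members and lists were chosen with earlier results of these data known. Named from each pathway list were up to 4 called genes with the largest change, or the 2 brightest, and from each marker list up to 3, of which some are left unnamed. Nearest profiles were taken for the 3 called members with the largest change. Same-numbered replicates did not deviate together (correlations of -0.05 to 0.03), so the numbers were not used as pairs in the main fit. Such correlations cannot show whether cultures shared a heart or preparation. The closing section gives the effect of other background, scaling, filter, variance and sample choices.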

Additional observations from a re-analysis of the deposited data

Results flagged for a closer look

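Within groups of 6 arrays, the highest or lowest array of 5 of 38 member probe groups stood far from the rest, where chance gives about 1 in 20. The probe groups are not independent, since all 5 values come from control replicates 1 and 6 and 3 are from Vldlr. No excess over chance can be read from this count. Control replicate 6 was far below the other controls at all 3 bright Vldlr probes, at log2 values of 10.10 (next 10.68), 9.65 (next 10.41) and 9.24 (next 9.83). Control replicate 1 was far below the other controls for Fabp3, at 15.07 (next 15.28), and for the second Gpihbp1 probe, at 6.28 (next 6.72). All 5 values were detected on their array.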

How the results depend on the processing

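Gpihbp1, Angptl4 and the difference between Gpihbp1 and Lpl kept their direction and call under every alternative that gave them a value. Gpihbp1 ranged from -2.42 to -1.28 and Angptl4 from -0.99 to -0.50. Gpihbp1 had no value over probes detected on all 12 arrays, where 3 member probes were called instead of 5. Alternatives for member probes were added after the data were seen. With no normalization between arrays 4403 genes were higher and 699 lower, Lmf1 turned to 0.073, Fabp3 lost its call at -0.30 and Vldlr was called at 0.40. Under median scaling 4090 genes were higher and 781 lower, Lmf1 turned to 0.029, Lpl to -0.074 and Vldlr was called at 0.34. The main counts were 2229 and 1924. With array weights Vldlr turned to -0.018, and at an adjusted p under 0.01 Lmf1, at -0.37, was no longer called. The causes were not tested. Leaving out each array gave Vldlr values of -0.11 to 0.075, negative without CTGF replicate 5 or 6 or control replicate 6, and ended no call of a member gene. Fitted over probes in place of genes, Lmf1 lost its call without control replicate 3 (adjusted p = 0.0503), which left 4 member probes called. The replicate number as a replicate block changed no member call, with 3932 genes called against 4153, and gave the difference between Gpihbp1 and Lpl as -2.40 (exact permutation within replicate numbers, p = 0.0312, the smallest possible). The slide as a block was not run, since no slide is given here. The signal over background limits Gpihbp1 with CTGF and leaves Cd36, Fabp4 and Fabp5 without a measured level, and Lpl lies near the top of the scale.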
